A study of Mus musculus with 8 samples.

Results

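The lymphocyte genes described here are 32 genes that mark T cells, natural killer (NK) cells and B cells, measured in whole mouse liver after knockdown of Raly. The rule takes the genes by name and not by a measured value, though the list was drawn up with earlier results of these data known. Every non-control probe that carries the symbol of a member was taken, 42 probes in all. The probe with the highest mean signal represented each gene, a choice that uses the measured values of both groups. By role, 10 are T cell and T helper genes, 17 are CD8 coreceptor, cytotoxic and NK genes, and 5 are B cell genes. They stand among 24029 gene names on the array.

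The shRaly group was 4 arrays of liver RNA from mice given an adenovirus with a hairpin against Raly, and the control group was 4 arrays from mice given the control adenovirus. Both viruses were made in the pBlock-iT vector, so every mouse carried an adenovirus, and no uninfected liver was analysed here. All mice were of the bl6 strain, 12 weeks old and fed chow, the labelled virus dose was 2e+09 with no unit, and RNA was taken on day 6. Whether each array is a separate mouse is not stated, and the p-values therefore cover the spread among the arrays, which may be technical. Raly itself, which encodes an RNA-binding protein, had a normalised signal of 1471, 2296, 1655 and 1779.9 on shRaly 1 to 4, against 2851, 2393, 2992 and 3186 on control 1 to 4. The groups did not overlap, and the log2 fold change was -0.68 (SE 0.15, limma adjusted p = 0.0749). All 8 arrays lay on 1 slide, with the controls in slide row 1 and the shRaly arrays in slide row 2, so row and group cannot be told apart.

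T cells recognise antigen through a receptor that signals inside the cell through the CD3 chains, the kinase Lck and the kinase Zap70, with CD4 or CD8 as the coreceptor. Cytotoxic T cells and NK cells kill target cells with perforin and granzymes, and the liver is known for an unusually rich population of NK and NK-like lymphocytes. B cells signal through a surface antibody coupled to the CD79 chains. In RNA from whole liver, fewer cells of a type and less RNA per cell cannot be told apart.

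The sequences below are those behind the member furthest below control, Cd4, and behind the T cell and B cell genes whose groups did not overlap, with the second probe of Zap70, because what an array reads of a gene is what its probe covers. Each probe has 60 bases, is printed 5′ to 3′ as the array files give it, and is on mouse build mm9. Capitals mark AATAAA, the polyadenylation signal, where it occurs. For the probes that hold it only bases 31 to 60 are shown, and the others are whole.
Cd4, probe used, chr6:124814711-124814770, minus strand: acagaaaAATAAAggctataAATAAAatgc
Cd4, other probe, chr6:124817706-124817765, minus strand: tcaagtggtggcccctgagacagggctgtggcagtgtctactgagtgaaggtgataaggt
Cd3e, probe used, chr9:44806828-44806887, minus strand: taatgcaaaaggcAATAAAgtgtattggct
Cd79a, probe used, chr7:25686823-25686882, plus strand: gtgatAATAAAtccttcccaaagcaaaaaa
Zap70, other probe, chr1:36839315-36839374, plus strand: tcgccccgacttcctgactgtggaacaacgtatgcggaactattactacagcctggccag

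AATAAA was found on the printed strand in 7 of the 32 probes used for the lymphocyte genes, 21.88% against 10.06% of all 55681 probes. Those 7 represent Cd3e, Cd4, Cd2, Cd28, Lck, Gzma and Cd79a. Counting either strand the shares were 28.12% for the lymphocyte genes and 13.45% for all probes. The Cd4 probe used holds 2 copies, has a stop codon in all 3 reading frames, and begins at base 3035 of the transcript it was designed on, where the other Cd4 probe begins at base 1242. A match describes the letters of the probe and does not show where a transcript ends. A run of 20 bases in the Cd22 probe also occurs in 4 probes of other genes, and one in the Gzma probe occurs in 1 unnamed probe. The other 30 probes used share no such run with another probe.

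Most of the lymphocyte genes gave a signal in these livers. A probe is called well above background by the scanner software. By that call 24 of the 32 members were detected on all 8 arrays: all 10 T cell genes, 10 of the 17 cytotoxic and NK genes, and 4 of the 5 B cell genes. Across the array, 13678 of 24029 gene names had a probe detected on all 8 arrays, with 3 or more values in each group. Cd8a was detected on 6 arrays, 3 in each group, while Ifng was detected on 3 shRaly and all 4 control arrays and Xcl1 on all 4 shRaly and 3 control arrays. The 5 remaining members were detected on at most 1 array and were not tested. They are Klrk1 and Klrb1c (the activating receptor NKG2D and the NK1.1 receptor of NK cells), Ncr1 (the NK receptor NKp46), Eomes (a transcription factor of NK cells and memory CD8 T cells) and Pax5 (the transcription factor that keeps B cell identity). With the probe used, Klrk1, Klrb1c and Pax5 were each detected on 1 array and Ncr1 and Eomes on none, and their signals lay between 2.42 and 16.9 on all 8 arrays. A second Pax5 probe was detected on 1 array, shRaly 2, at 80.6. No fold is given for these genes.

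None of the 27 tested lymphocyte genes differed between shRaly and control livers past the threshold, a limma adjusted p of 0.05 over all 14874 genes tested. The adjusted p-values ran from 0.101 for Il2rb to 0.983 for Ctsw. Across the array 1.22% of genes passed, 46 higher and 136 lower in shRaly livers. At an unadjusted p under 0.05, 3 members were higher in shRaly livers (Il2rb, Cd8b1 and Xcl1), 11.1% against 6.41% of all genes, and 5 were lower (Cd4, Cd3e, Prf1, Cd79a and Cd22), 18.5% against 9.71%. The groups did not overlap for 2 members higher in shRaly livers, 7.41% against 3.93% of all genes, and for 3 lower, 11.1% against 6.45%. With 27 genes these shares rest on 2 to 5 genes each. The median log2 fold change was 0.10 over the members and -0.02 over all genes. Above 0 were 17 members, 63% against 46.2% of all genes, and 10 were below. For 23 of the 27 the 95% interval of the log2 fold change lay within 1 of 0, and for 19 it included 0. The widest bounds were -1.25, for Cd4, and 1.29, for Gzmb.

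**Figure D1:**
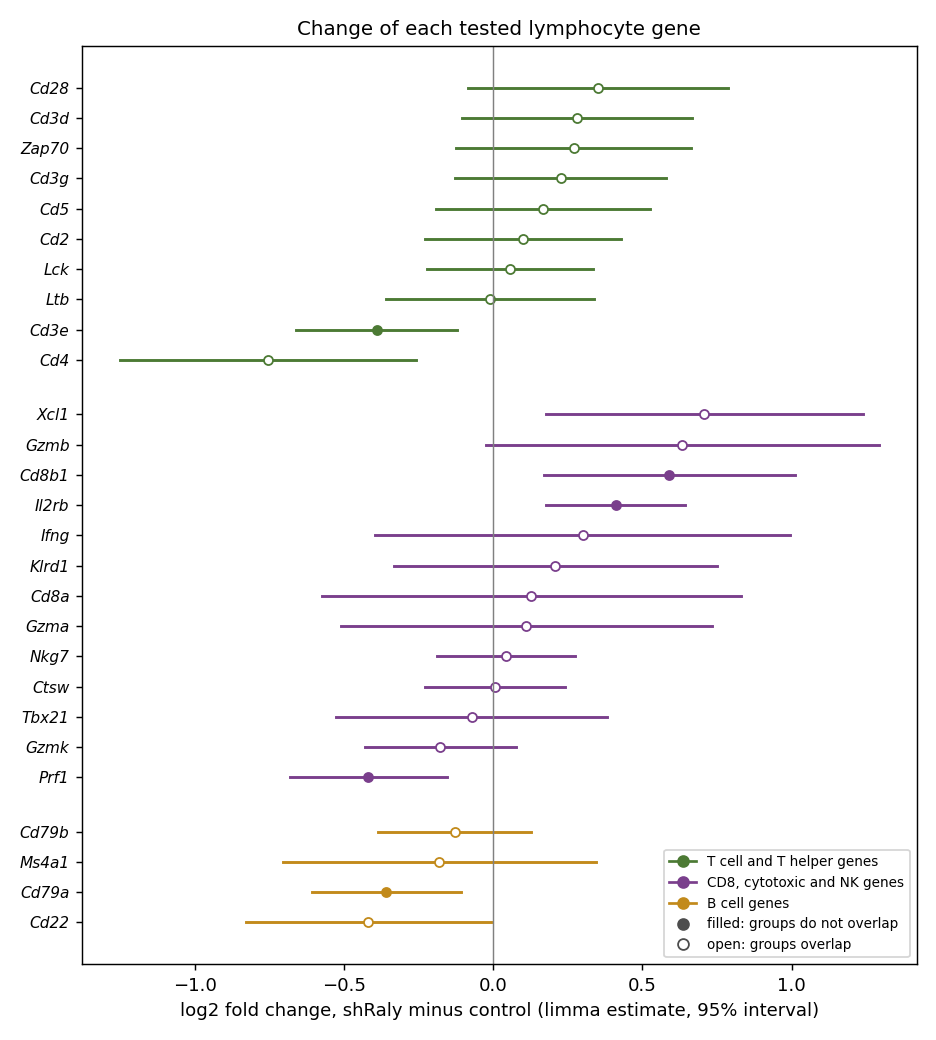
Log2 fold change of each of the 27 tested lymphocyte genes (x axis, shRaly minus control, limma estimate with its 95% interval), grouped by role, with filled points where the 4 shRaly and 4 control arrays do not overlap. The 4 B cell genes all lie below 0, and T cell and cytotoxic genes lie on both sides, from -0.75 for Cd4 to 0.71 for Xcl1.

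Of the T cell genes, 0 of 10 passed the threshold, 7 had values above 0 and 3 below, and the median log2 fold change was 0.13. The receptor chains of one complex did not share a sign. Cd3e, the epsilon chain of CD3, had a normalised signal of 320.2, 399.4, 306 and 370.3 on shRaly 1 to 4, against 399.5, 457, 511 and 458 on control 1 to 4. Every shRaly array was below every control array, though shRaly 2 and control 1 differed by very little. Cd3e stood at 76.3% of control (95% interval 63.3% to 91.9%), with a log2 fold change of -0.39 (SE 0.12, limma adjusted p = 0.157). For Cd3d, the delta chain, the groups overlapped at a log2 fold change of 0.28 (adjusted p = 0.459), and for Cd3g, the gamma chain, at 0.23 (0.515). The probes of all 3 chains lie near each other on chromosome 9.

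Cd4, the coreceptor of T helper cells, had the lowest fold change of the members. Its normalised signal was 4207, 8204, 4416 and 5159.7 on shRaly 1 to 4, against 7859, 8291, 11498 and 8488 on control 1 to 4. Arrays shRaly 1, 3 and 4 were below all controls, and shRaly 2 lay among the controls. Cd4 stood at 59.3% of control (95% interval 42.1% to 83.6%), a log2 fold change of -0.75 (SE 0.22, limma adjusted p = 0.143). Without shRaly 2, Cd4 passed the threshold at -0.96 (SE 0.15, limma adjusted p = 0.0293). In that fit 282 genes passed over the whole array, against 182 with every array. With normexp background correction Cd4 passed at -0.80 (SE 0.17, 0.0355). Over the 17 alternatives tried, which include the deposited table of the same values, its adjusted p ran from 0.0293 to 0.301.

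The 2 Cd4 probes did not read alike. The other probe, printed in full above, has 10 spots on each array and was well above background on 1 of the 8 arrays, a shRaly array. Its signals were 8.28 to 9.57 on the shRaly arrays and 8.91 to 10.9 on the control arrays, a log2 fold change of -0.11 that is not a measurement above background. The 2 probes lie 2935 bases apart on the genome. The Cd4 values above thus rest on 1 probe, with no second probe above background on the control arrays, and which transcript that probe reads was not checked here, so 59.3% of control is the value of this probe.

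The kinases and costimulators of the T cell receptor did not differ past the threshold. Zap70, the kinase that binds phosphorylated CD3 chains, had a normalised signal of 1659, 2811, 2028 and 1961 on shRaly 1 to 4, against 1849.5, 1540.0, 1494 and 2066 on control 1 to 4. The groups overlapped, with shRaly 2 the highest of all, and the log2 fold change was 0.27 (SE 0.17, limma adjusted p = 0.486), or 0.12 without shRaly 2. A second Zap70 probe, also well above background on all 8 arrays, gave 570, 1205, 960 and 828 on shRaly 1 to 4, against 884, 638, 676 and 1003 on control 1 to 4. Its log2 fold change was 0.13, and the groups overlapped as they did with the first probe. The log2 fold change of Lck, the kinase that starts receptor signalling, was 0.06 (adjusted p = 0.863), and that of Cd28, the costimulatory receptor, 0.35 (0.412). Cd2, an adhesion receptor of T and NK cells, had 0.10, Cd5, which dampens receptor signalling, 0.17, and Ltb, the membrane cytokine lymphotoxin beta, -0.01, with adjusted p from 0.648 to 0.981.

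**Figure D2:**
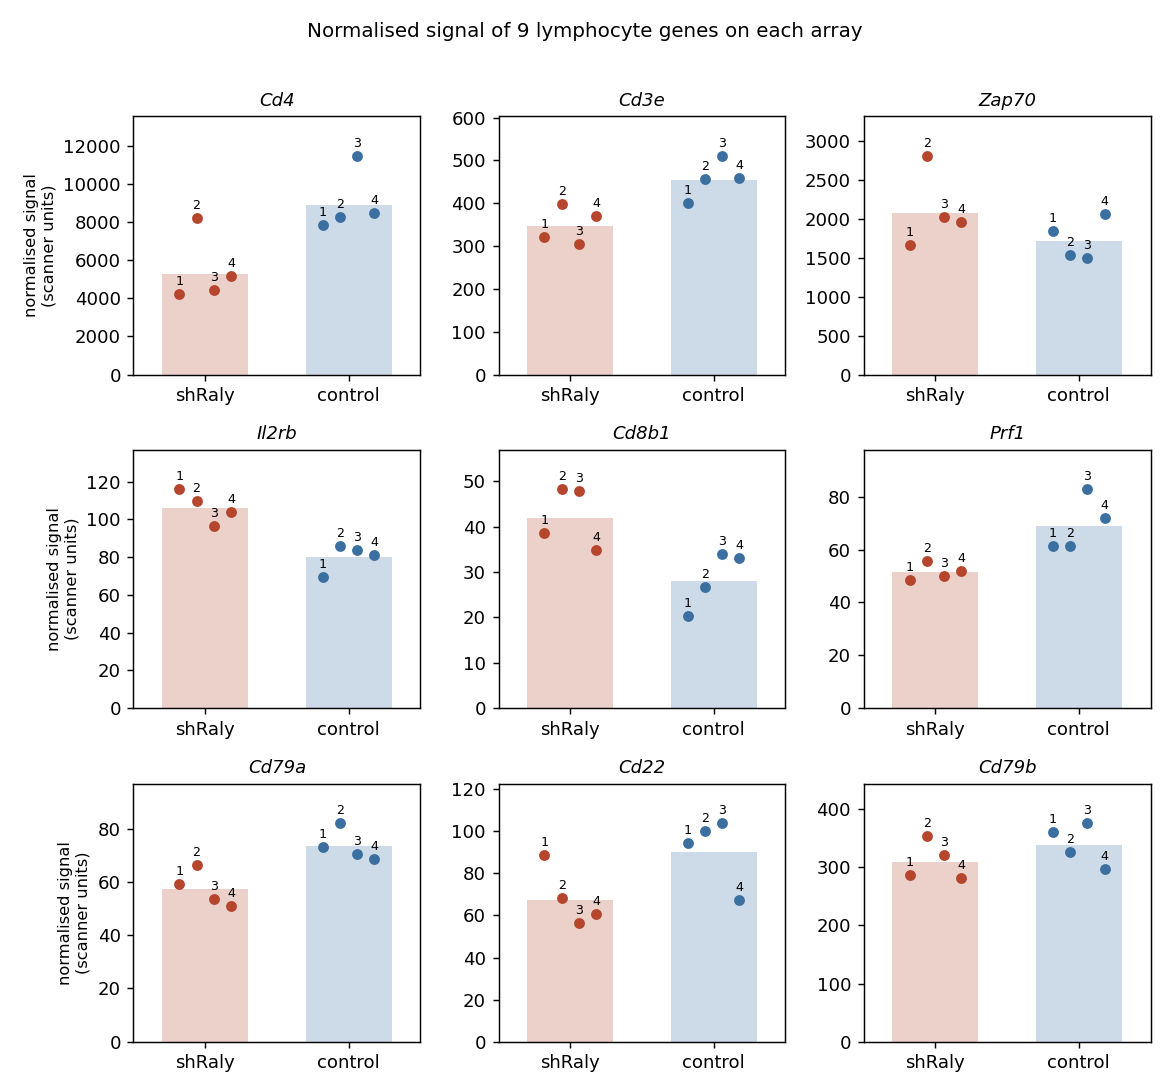
Normalised signal (y axis, scanner units, from 0) of 9 lymphocyte genes on each shRaly array and each control array, with points numbered by replicate and bars at the geometric mean of 4 arrays. For Cd3e, Prf1 and Cd79a every shRaly array lies below every control array, for Il2rb and Cd8b1 above, and for Cd4 shRaly 2, at 8204, lies among the controls.

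**Figure D3:**
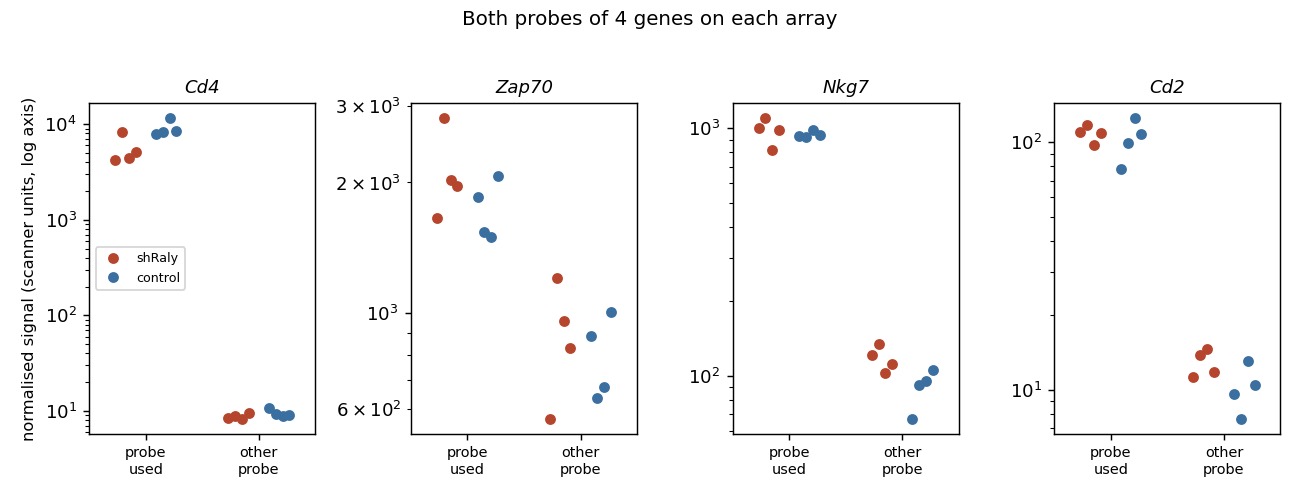
Normalised signal (y axis, scanner units, log axis) of both probes of Cd4, Zap70, Nkg7 and Cd2 on each array, shRaly left of control. The other Cd4 probe stays between 8.28 and 10.9 on all 8 arrays, and the other Zap70 and Nkg7 probes are well above background on all 8.

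Among the CD8, cytotoxic and NK genes, 0 of 13 tested passed the threshold, 10 had values above 0 and 3 below, and the median log2 fold change was 0.13. Il2rb, the beta chain shared by the receptors for interleukin 2 and interleukin 15, had the smallest p of the lymphocyte genes. Its normalised signal was 116, 109.5, 96.5 and 104 on shRaly 1 to 4, against 69.3, 86.2, 84.0 and 81.4 on control 1 to 4. Every shRaly array was above every control array, with control 1 the lowest. Il2rb stood at 133% of control (95% interval 113% to 156%), a log2 fold change of 0.41 (SE 0.10, limma adjusted p = 0.101).

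Both chains of the CD8 coreceptor were measured. Cd8b1, the beta chain, had 38.5, 48.2, 47.9 and 34.9 on shRaly 1 to 4, against 20.3, 26.6, 34 and 33.1 on control 1 to 4. The groups did not overlap, with shRaly 4 next to control 3, and Cd8b1 stood at 150.5% of control (95% interval 112% to 201%), a log2 fold change of 0.59 (SE 0.19, limma adjusted p = 0.172). Cd8a, the alpha chain, had 20.9, 19.2, 13.0 and 13.6 on shRaly 1 to 4, against 7.89, 15.3, 21.8 and 18.8 on control 1 to 4. Control 1 was the lowest and control 3 the highest of all 8 arrays, so the shRaly values lay within the spread of the controls. The log2 fold change of Cd8a was 0.13 (SE 0.31, limma adjusted p = 0.881), on a probe detected on 6 arrays, and it was -0.18 without control 1. A second Cd8a probe was well above background on 0 arrays.

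The killing machinery was not of one sign. Prf1, which encodes perforin, the pore-forming protein of cytotoxic granules, had 48.7, 55.7, 50.1 and 51.8 on shRaly 1 to 4, against 61.4, 61.4, 82.9 and 72.0 on control 1 to 4. All shRaly arrays were below all control arrays, and within the shRaly group the values lay close together. Prf1 stood at 74.8% of control (95% interval 62.3% to 89.8%), a log2 fold change of -0.42 (SE 0.12, limma adjusted p = 0.129). With normexp background correction its log2 fold change was -0.08 (limma adjusted p = 0.799).

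Gzma, the granzyme A gene, had 222, 556, 317 and 402 on shRaly 1 to 4, against 238, 393, 363 and 341 on control 1 to 4. The lowest and the highest value both came from shRaly arrays, and the log2 fold change was 0.11 (SE 0.27, limma adjusted p = 0.884), or -0.11 without shRaly 2. Gzmb, the granzyme B gene, chosen for display after its values were seen, had 87.2, 88.7, 76.9 and 121 on shRaly 1 to 4, against 31.1, 70.8, 79.8 and 70.9 on control 1 to 4. Control 1 stood far below the other controls, and shRaly 3 lay below control 3. The log2 fold change of Gzmb was 0.63 (SE 0.29, limma adjusted p = 0.327), and 0.32 without control 1. Gzmk, the granzyme K gene, had -0.18 (adjusted p = 0.472) and Ctsw, a cysteine protease of cytotoxic lymphocytes, 0.01 (0.983).

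Nkg7, a granule membrane protein of NK and cytotoxic T cells, had 1004, 1097, 819.9 and 985 on shRaly 1 to 4, against 931, 923, 983 and 937 on control 1 to 4. The groups overlapped, with a log2 fold change of 0.04 (SE 0.10, limma adjusted p = 0.879). A second Nkg7 probe, well above background on all 8 arrays, gave 122, 134, 103 and 112 on shRaly 1 to 4, against 67.1, 91.7, 95.4 and 106 on control 1 to 4, a log2 fold change of 0.40. On that probe control 1 was the lowest array and shRaly 3 lay just below control 4.

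Of the cytokines and regulators, Ifng, the interferon gamma gene, had 25.8, 30.7, 10.8 and 15.4 on shRaly 1 to 4, against 15.4, 15, 18.9 and 13.0 on control 1 to 4. The shRaly arrays spread more widely than the controls, from below the lowest to above the highest, and the log2 fold change was 0.30 (SE 0.31, limma adjusted p = 0.676). It was 0.07 without shRaly 2 and 0.57 without shRaly 3. Xcl1, a chemokine of activated NK and CD8 T cells, chosen for display after its values were seen, had 41.4, 25.1, 22.5 and 36.6 on shRaly 1 to 4, against 17.6, 14.3, 25.3 and 19.0 on control 1 to 4. Control 3 lay above shRaly 2 and shRaly 3, and Xcl1 stood at 163% of control (95% interval 113% to 236%), a log2 fold change of 0.71 (SE 0.23, limma adjusted p = 0.190). For Klrd1, the CD94 receptor chain of NK cells, the log2 fold change was 0.21 (adjusted p = 0.716), and for Tbx21, the T-bet transcription factor that drives Ifng, it was -0.07 (0.897).

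All 4 tested B cell genes had values below 0, as did 7998 of all 14874 genes tested. Of the 4, 0 passed the threshold, and their median log2 fold change was -0.27. Cd79a, a signalling chain of the B cell receptor, had 59.3, 66.4, 53.5 and 50.9 on shRaly 1 to 4, against 73.0, 82.1, 70.4 and 68.6 on control 1 to 4. The groups did not overlap, with shRaly 2 just below control 4. Cd79a stood at 78.0% of control (95% interval 65.6% to 92.7%), a log2 fold change of -0.36 (SE 0.11, limma adjusted p = 0.163). A second Cd79a probe was well above background on 0 arrays, so these values rest on the probe used.

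Cd79b, its partner chain, had 287, 354, 321 and 282 on shRaly 1 to 4, against 361, 327, 376 and 297 on control 1 to 4. The groups overlapped, and the log2 fold change was -0.13 (SE 0.11, limma adjusted p = 0.615). Cd22, an inhibitory receptor of B cells, had 88.7, 68.3, 56.6 and 60.5 on shRaly 1 to 4, against 94.6, 100.02, 104 and 67.2 on control 1 to 4. Control 4 lay among the shRaly arrays, and the log2 fold change was -0.42 (SE 0.18, limma adjusted p = 0.301). Ms4a1, which encodes CD20, had -0.18 (adjusted p = 0.749). With normexp background correction, which adds 50 to each signal, the median of these genes was -0.10.

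The arrays of one group differed among themselves in the lymphocyte genes as a whole. Relative to the control mean, the median over the T cell genes was 0.12, 0.30, -0.06 and 0.04 on shRaly 1 to 4, against -0.20, -0.06, 0.21 and 0.10 on control 1 to 4. The median over the cytotoxic and NK genes was 0.27, 0.36, -0.20 and 0.06 on shRaly 1 to 4, against -0.16, -0.04, 0.27 and 0.06 on control 1 to 4. Both groups overlapped in each, with shRaly 2 highest and shRaly 3 lowest among the shRaly arrays, and control 3 highest and control 1 lowest among the controls. The B cell genes stood at -0.27, -0.04, -0.44 and -0.40 on shRaly 1 to 4, against 0.04, 0.05, 0.18 and -0.14 on control 1 to 4, where shRaly 2 lay above control 4.

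Gene by gene the same arrays stood out. Control 3 had the highest control value for 20 of the 27 tested lymphocyte genes, 74.1%, against 21.8% of the 14851 genes with a value on every array. Control 1 had the lowest for 13, 48.1% against 31.5%: 7 of the 10 T cell genes, 6 of the 13 cytotoxic and NK genes and none of the 4 B cell genes. In the shRaly group, shRaly 2 was highest for 16 and shRaly 3 lowest for 16, each 59.3% of the members against 22.0% and 23.0% of all genes. Without control 1 the median log2 fold change was 0.02 for the T cell genes and 0.00 for the cytotoxic and NK genes, and without control 3 it was 0.20 and 0.31.

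**Figure D4:**
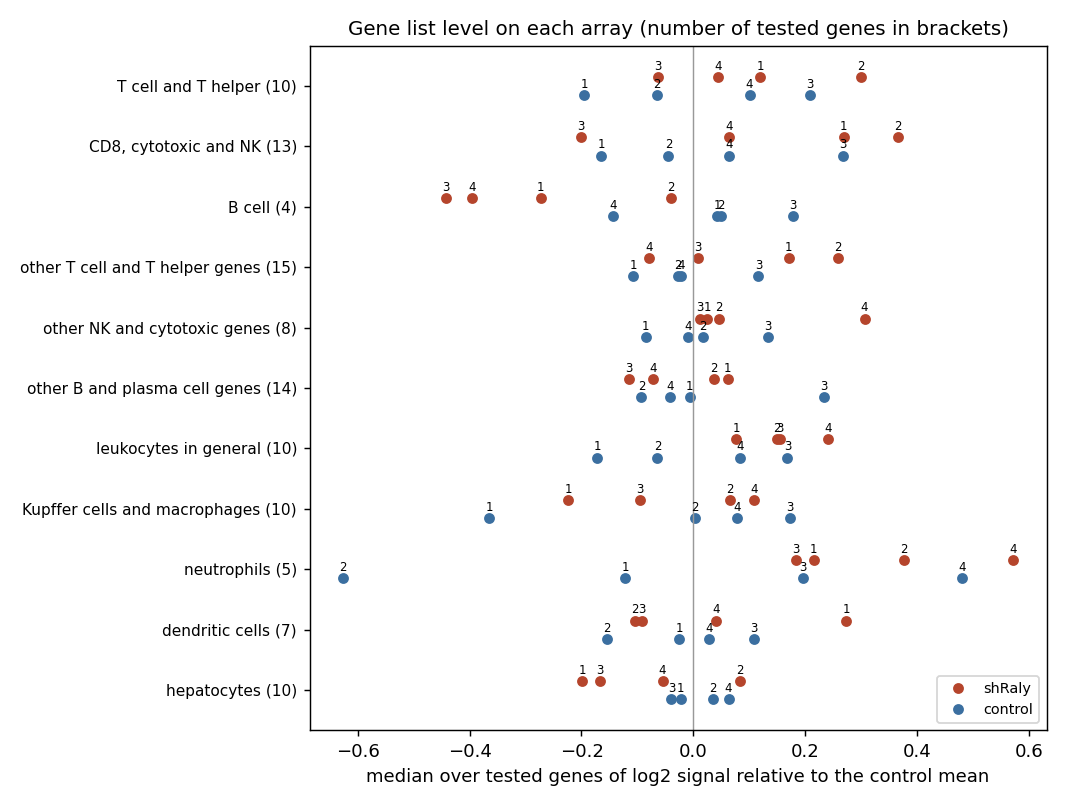
Median over the tested genes of each list of the log2 signal relative to the control mean (x axis) on each array, with shRaly points above control points and numbers for replicates. T cell and cytotoxic medians overlap between the groups, with control 1 at -0.20 and -0.16, while 3 of the 4 shRaly arrays lie below all controls for the B cell genes.

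Other genes of the same cell types, from lists of names, also gave 0 past the threshold. Of 22 other T cell genes 15 were tested, with a median log2 fold change of 0.05, and at an unadjusted p under 0.05 limma had 2 higher (13.3% against 6.41% of all genes) and 0 lower (against 9.71%). Of 17 other NK and cytotoxic genes 8 were tested, with a median of 0.09. Of 17 other B and plasma cell genes 14 were tested, with 6 above 0, 8 below 0 and a median of -0.10, and in neither of these lists was a gene under an unadjusted p of 0.05. Cxcr3, the chemokine receptor of activated T and NK cells, had 143, 129.8 and 155 on shRaly 2 to 4, against 103, 110.3, 124 and 109.8 on control 1 to 4. Its spot on shRaly 1 was flagged by the scanner software and left out. The groups did not overlap, and the log2 fold change was 0.35 (SE 0.11, limma adjusted p = 0.173).

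One ligand of that receptor passed the threshold. Cxcl10, an interferon-induced chemokine that attracts T and NK cells, had 1961, 1666, 2049 and 2014 on shRaly 1 to 4, against 887, 947, 1095 and 1007 on control 1 to 4. Cxcl9, a second ligand, had 1895, 1457, 1210.3 and 1813 on shRaly 1 to 4, against 580.3, 764, 1142 and 1058 on control 1 to 4. For both, every shRaly array was above every control array. The limma adjusted p of Cxcl10 was 0.0103, and it rose to 195% of control (log2 fold change 0.97, SE 0.10). Cxcl9 stood at 183%, with a log2 fold change of 0.87 (SE 0.23, adjusted p = 0.118). The third ligand gene, Cxcl11, had 99604 to 132450 on the shRaly arrays and 104181 to 123403 on the control arrays. Its log2 fold change was -0.01, and what its probe reads was not checked here.

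Markers of other cells were measured beside these genes. Genes of leukocytes in general had 9 of 10 values above 0, against 46.2% of all genes, and a median log2 fold change of 0.13. Their summed signals were 8052 to 8852 on the shRaly arrays and 6777 to 8598 on the control arrays. Their array medians placed control 1 lowest and control 3 highest of the controls, as those of the T cell and cytotoxic genes did, and so did those of the Kupffer cell and macrophage genes, at -0.37 and 0.17, and of the other T cell and other NK lists. Kupffer cell and macrophage genes had a median of 0.03 (10 tested of 11), hepatocyte genes -0.07 (10 of 10), dendritic cell genes 0.18 (7 of 8), neutrophil genes 0.40 (5 of 9) and mast cell and basophil genes -0.22 (2 of 6), with 0 past the threshold in each. At a limma unadjusted p under 0.05, hepatocyte genes had 3 lower (30% against 9.71% of all genes) and 1 higher (10% against 6.41%). Dendritic cell genes had 1 lower (14.3%), and genes of leukocytes in general had 1 higher (10%). The other 3 of these lists had 0. Neutrophil summed signals were 1147 to 1547 on the shRaly arrays and 776 to 1477 on the control arrays. The share of spots well above background was 45.9% on shRaly 2 and 49.1% to 51.1% on the other 7 arrays. The part of these cells, of depth of signal or of slide row in the values of the lymphocyte genes was not tested.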

How the data were processed

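Liver RNA of 4 shRaly and 4 control samples was hybridised to single-colour Agilent arrays of 62976 spots, of which 59305 are not controls and hold 55681 probes. The spot intensity was extracted by the authors with Agilent's Feature Extraction software (per the file headers 11.5.1.1, per the submitters' processing notes 11.5.1.11), and the deposited processed intensity is background-subtracted and not normalised between arrays. The deposited series table held the same intensity values on all 62976 spots of each array. Here log2 of the processed signal minus each array's 75th percentile was taken, outlier spots were left out, and spots of a probe were averaged. Printed signals are these values brought back to scanner units with the mean percentile, means are geometric, and coordinates are on mm9 per the file headers.

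Each gene was represented by its probe of highest mean signal and tested if 4 or more of the 8 arrays read it well above background and each group had 3 or more values. Groups were compared with limma 3.58.1 in R 4.3.3 (lmFit, eBayes), with Benjamini-Hochberg adjustment over 14874 genes and a threshold of 0.05. The procedure was tested on simulated data drawn with independent noise in each gene. Those data held no shifts shared by many genes of an array, which the lymphocyte genes here showed. No signal was saturated, and arrays give no counts, so their number limits the precision. The members and the lists of marker genes were chosen with earlier results of these data known. Signals of each array are given for members whose groups do not overlap, the 3 highest-signal members of each role and Cd4, Cd8a and Ifng. Those of Gzmb and Xcl1, and the control signals of Cd3d, were added after their values were seen. Other members are given by fold change, counts and ranges. Members are not replicates, and levels of different genes are not compared. The alternatives were other scalings, normexp with an offset of 50, other filters on dim probes, the mean of a gene's probes, other moderation, the deposited table, a replicate block and leaving out single arrays. Replicate numbers come from the titles and do not mark a shared litter, batch or day there. In both groups they equal the slide column.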

Additional observations from a re-analysis of the deposited data

Results flagged for a closer look

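In the control group 1 array stood apart from the other 3 for 2 of the lymphocyte genes. For Cd3d, a chain of the T cell receptor complex, control 1 had a normalised signal of 90.8, where controls 2 to 4 had 129.7, 134 and 132, so its gap to the nearest control was 0.920 of the group's range on the log2 scale. For Gzmb, the granzyme B gene, control 1 had 31.1, where controls 2 to 4 had 70.8, 79.8 and 70.9, a gap of 0.872 of the range. Both gaps were beyond Dixon's 95% critical value for 4 samples. These were 2 of the 54 groups of 4 arrays examined, and chance puts about 1 in 20 beyond that value. Both genes had positive fold changes, and without control 1 the log2 fold change was 0.15 for Cd3d and 0.32 for Gzmb.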

How the results depend on the processing

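Of the 27 tested lymphocyte genes, 0 passed the threshold with median or quantile scaling, with the mean of a gene's probes and with trend and robust moderation. The deposited table holds the same values as the scanner output, so its result could not differ. Without a filter on dim probes 0 of 32 passed, and with detection required on all 8 arrays 0 of 24. With normexp background correction 1 passed (Cd4), and when single arrays were left out 0 to 1 passed (Cd4 without shRaly 2). Over all genes, limma called 182, and this count was 42 without a filter on dim probes, 17 (without control 2) to 282 (without shRaly 2) in the leave-outs, and 133 to 269 in the other alternatives apart from the block. With the replicate number as a replicate block 0 lymphocyte genes and 46 genes in all passed. Same-numbered arrays lay in the same slide column, so the block is also a block of slide column. Their deviations correlated at 0.09, -0.02, -0.07 and 0.14, within the -0.28 to 0.23 of the other pairs. Whether same-numbered arrays share anything else was not tested.

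The B cell median of -0.27 was -0.10 with normexp, -0.18 without a filter on dim probes (5 genes), -0.30 with median scaling, -0.29 with quantile normalization and -0.42 to -0.23 in the leave-outs. The T cell median was 0.02 to 0.20 and the cytotoxic median 0.00 to 0.31 in the leave-outs. The following log2 fold changes, of members between -0.18 and 0.21, changed sign. Ctsw was -0.021 with median scaling and -0.0022 with quantile normalization, and Ltb 1.8e-05 with quantile normalization. With normexp Ltb was 0.014, Gzmk 0.043, Nkg7 -0.012, Tbx21 0.11 and Ms4a1 0.017. In the leave-outs Ctsw ran from -0.034 to 0.085, Lck from -0.018 to 0.12, Gzma from -0.11 to 0.34, Nkg7 from -0.016 to 0.12, Ltb from -0.10 to 0.092, Tbx21 from -0.19 to 0.059, Cd2 from -0.026 to 0.20, Cd8a from -0.18 to 0.31 and Klrd1 from -0.0087 to 0.40. Several other members kept their sign with normexp but had smaller changes than without it. Prf1 was -0.08, Cd22 -0.06, Cd79a -0.14, Cd8b1 0.21, Gzmb 0.31 and Xcl1 0.26. Il2rb was 0.29 and Cd3e -0.36 there. Cd4, at -0.80, Cd5, at 0.21, Cd79b, at -0.14, and Ctsw, at 0.09, kept their sign and were not smaller. Apart from the smaller number of arrays in the leave-outs, the cause was not tested. Signal over background limits Cd8a, Ifng and Xcl1, which were not detected on every array.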
